A study of Mus musculus with 18 samples.

Results

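The 43 genes described here encode the ligands, receptors and best known secreted antagonists of the BMP and TGF-beta family. They were taken by symbol from the 19938 genes that the array measured (bone morphogenetic proteins, growth differentiation factors, TGF-betas, activin and inhibin subunits, the matching receptors, and noggin, chordin, gremlin and follistatin), without use of any expression value. Each member has 1 probe set, read by a set of short probes along the gene. Gdf1 shares its probe set with another gene and was left out. Bmp1 matches the symbols but is a metalloproteinase that trims procollagen and cleaves chordin, and it is described separately. RNA came from the vestibular organ, which senses head position and motion in the inner ear. The mice were Igf1-/- or Igf1+/+, all of mixed Mf1 and 129/sv stock. Igf1 is the gene of a secreted hormone, insulin-like growth factor 1. The groups were Igf1-/- at E18.5, Igf1+/+ at E18.5, Igf1-/- at P15, Igf1+/+ at P15, Igf1-/- at P90 and Igf1+/+ at P90, with 3 arrays each. E is the embryonic day and P the postnatal day, so that the series runs from late embryo to adult. Postnatal wild-type samples carry a free-text remark naming them Igf1-/-, while their title, source and genotype fields all say Igf1+/+. Those 3 fields were followed. The labels name each array a biological replicate without saying how many animals it holds, so p-values measure the spread between arrays. Some arrays held RNA of both sexes, as described below.

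Most ligands of the family bind a pair of type II and a pair of type I receptors, both serine/threonine kinases, and the type I receptor then phosphorylates SMAD proteins that enter the nucleus. TGF-betas and activins act mainly through SMAD2 and SMAD3, and BMPs and some of the GDFs through SMAD1, SMAD5 and SMAD9. Secreted antagonists such as noggin hold the ligands away from their receptors. In the developing inner ear BMP4 is a known mark of the sensory patches, and TGF-betas and BMPs act in the cartilage and bone of the capsule around the organ.

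Values are in log units after quantile normalization. Their base is unknown, so a step of 1 unit is either 2.72-fold (base e, the likelier one) or 2-fold (base 2). Levels of different genes are not compared, because probe sets differ in brightness. A gene is said to rise or fall only where the limma fit of all 18 arrays gave a p under 0.05 after Benjamini-Hochberg adjustment over the 19938 genes. Differences are given with their standard error (SE). Of the 43 members, 6 (Bmp10, Bmp15, Gdf2, Gdf9, Inhbc and Inhbe) had their highest group mean among the dimmest 20% of genes, below 3.4, and their differences carry more doubt. Bmp8a and Bmp8b are close duplicates whose probe sets may share signal, which was not tested.

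Igf1 itself measured 6.4 to 6.88 in Igf1-/- and 6.98 to 7.07 in Igf1+/+ organs at E18.5. At P15 it measured 5.42 to 5.69 in Igf1-/- and 5.87 to 6.11 in Igf1+/+ organs. At P90 the ranges overlapped, with 5.31 to 5.51 in Igf1-/- and 5.39 to 5.63 in Igf1+/+ organs. Whether the probes lie inside the deleted part is unknown here. Hair cell, supporting cell, otoconia and otic fibrocyte markers were measured with 1 dim gene among 44, and cartilage, bone, muscle and blood cell markers were present as well. In such bulk samples, fewer cells of a type and less RNA per cell cannot be told apart. Replicates 2 and 3 of Igf1-/- at E18.5 (16.3 and 18.8) and replicates 1 and 2 of Igf1+/+ at P90 (13.5 and 17) stood apart from the other arrays of their age on the third principal component. Replicate 1 of Igf1-/- at E18.5 (-9.4) lay near the Igf1+/+ arrays of that age (-9.5 to -8). Replicate 3 of Igf1+/+ at P90 (-12) lay nearest the Igf1-/- arrays (-25 to -12.5). Calls of family members that were lost without the 4 arrays that stood apart are reported beside the results. Leaving these 4 out leaves 1 array in Igf1-/- at E18.5 and in Igf1+/+ at P90, the one nearest the other genotype on that component. That array is then assumed to vary like the arrays of the other groups, so a pass or a loss in such a fit rests on it. Xist, which marks female cells, measured 7.42 to 7.91 in the Igf1-/- and 1.86 to 3.33 in the Igf1+/+ arrays at P90, so sex and genotype cannot be told apart at that age. The mean of Y-linked genes, which mark male cells, was 2, 5.44 and 5.49 in these Igf1-/- arrays and 6.12 to 6.32 in the Igf1+/+ arrays. Replicates 2 and 3 of Igf1-/- were thus of mixed sex. So were all E18.5 arrays, with Xist at 7.31 to 8.01 and the Y-linked mean at 5.23 to 5.95. At P15 the mix varied, with Xist at 4.09 to 8.09 and the Y-linked mean at 3.29 to 6.31.

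Promoter sequence is shown for 4 members, picked after their values were seen because the results below turn on them. Tgfb1 and Tgfb2 went in opposite directions after birth, Bmp5 had one of the largest falls, and Inhba had the smallest p between genotypes. Each line gives the 250 bases before the start of the gene, 5′ to 3′ on the strand of the gene, from RefSeq on GRCm38.p6. Capitals mark the GC box (GGGCGG, read on either strand, as CCGCCC on the other) in Tgfb1 and the TATA box (TATAAA) in Tgfb2 and Inhba. Bmp5 holds neither, so its line has no capitals. The windows are chr7:25686752-25687001 (+ strand) for Tgfb1, chr1:186705990-186706239 (- strand) for Tgfb2, chr9:75775115-75775364 (+ strand) for Bmp5 and chr13:16011601-16011850 (+ strand) for Inhba.
Tgfb1: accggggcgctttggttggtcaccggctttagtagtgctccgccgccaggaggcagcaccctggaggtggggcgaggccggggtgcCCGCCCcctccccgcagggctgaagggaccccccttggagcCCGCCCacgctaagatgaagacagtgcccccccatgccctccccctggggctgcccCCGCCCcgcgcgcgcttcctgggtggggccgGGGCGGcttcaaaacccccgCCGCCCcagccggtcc
Tgfb2: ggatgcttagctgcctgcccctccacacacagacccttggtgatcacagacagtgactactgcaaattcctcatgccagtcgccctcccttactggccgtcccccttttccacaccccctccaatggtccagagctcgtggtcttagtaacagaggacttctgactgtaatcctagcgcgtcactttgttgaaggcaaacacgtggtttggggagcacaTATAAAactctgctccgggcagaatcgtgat
Bmp5: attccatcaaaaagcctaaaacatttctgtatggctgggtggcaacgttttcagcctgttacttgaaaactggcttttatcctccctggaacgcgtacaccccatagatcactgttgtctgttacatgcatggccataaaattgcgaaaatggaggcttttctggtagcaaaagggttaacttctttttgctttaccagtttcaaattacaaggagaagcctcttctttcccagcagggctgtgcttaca
Inhba: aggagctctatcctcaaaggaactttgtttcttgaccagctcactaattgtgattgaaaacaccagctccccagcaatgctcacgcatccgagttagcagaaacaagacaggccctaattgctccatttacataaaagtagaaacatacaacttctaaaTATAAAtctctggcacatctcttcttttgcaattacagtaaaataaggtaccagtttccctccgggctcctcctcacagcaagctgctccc

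The Tgfb1 window holds 5 GC boxes and no TATA box, and 75.2% of its bases are G or C. Tgfb2 has the reverse make-up, with 1 TATA box whose first base lies 31 bases before the start, no GC box and 53.6% G or C. The share of G or C was 42.8% in Bmp5 and 43.2% in Inhba, where the TATA box begins 91 bases before the start. Both motifs were searched on both strands. Among all 32851 promoter windows of this length, 32.7% hold a GC box and 12.4% a TATA box. Of the 43 members, 30 matched the promoter table, with 34 windows, of which 19 hold a GC box and 6 a TATA box. The 8-base SMAD palindrome GTCTAGAC was in none of the 34 and in 0.167% of all windows, too few for its absence from 34 to say much. The shorter SMAD box CAGAC was in 16 of the 34 and in 42.2% of all windows. A match describes these letters and is not evidence of binding.

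The first comparison asks how the family changed as the organ matured from late embryo to P15. More members fell than rose in both genotypes. Of the 43 in Igf1-/- organs, 7 rose and 16 fell, together 53.5% of the members, against 40.8% of all genes (20.3% up and 20.5% down). In Igf1+/+ organs 6 rose and 18 fell, 55.8% of the members, against 41.5% of all genes (19.7% up and 21.9% down). The median difference over the members was -0.17 in Igf1-/- and -0.25 in Igf1+/+ organs, while over all genes it was -0.04 in Igf1-/- and -0.05 in Igf1+/+ organs. The direction split depends on the scaling. Without normalization, which shifts the median of all genes by 0.25 in Igf1-/- and 0.11 in Igf1+/+ organs, 9 members rose and 5 fell in Igf1-/- organs, and 7 rose and 9 fell in Igf1+/+ organs. Without the 4 arrays that stood apart, 5 rose and 11 fell in Igf1-/- organs, where E18.5 is then 1 array, and 5 rose and 19 fell in Igf1+/+ organs.

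The 3 TGF-beta ligands split. Tgfb1, the isoform best known from immune and blood cells, was higher at P15 than at E18.5. In Igf1-/- organs Tgfb1 measured 4.88, 4.94 and 4.98 at E18.5, followed by 6.04, 6.22 and 5.89 at P15 and by 5.98, 6.01 and 5.24 at P90. In Igf1+/+ organs Tgfb1 measured 5.1, 5.1 and 5.14 at E18.5, followed by 6.25, 6.28 and 5.93 at P15 and by 5.78, 5.38 and 5.76 at P90. Every P15 array lay above every E18.5 array. The rise from E18.5 to P15 was 1.11 ± 0.17 in Igf1-/- organs (adjusted p = 8.7e-05) and 1.04 ± 0.17 in Igf1+/+ organs (adjusted p = 1.4e-04).

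Tgfb2 and Tgfb3, isoforms with known roles in skeletal and epithelial development, went the other way. In Igf1-/- organs Tgfb2 measured 6.16, 6.03 and 6.15 at E18.5, followed by 4.99, 5.05 and 5.09 at P15 and by 5.22, 5.26 and 5.03 at P90. In Igf1+/+ organs Tgfb2 measured 6.23, 6.24 and 6.25 at E18.5, followed by 4.82, 4.78 and 4.74 at P15 and by 5.25, 5.03 and 5.32 at P90. The E18.5 arrays were all higher than the later ones, and at P15 the 3 Igf1-/- arrays lay above the 3 Igf1+/+ arrays. Tgfb2 fell by 1.07 ± 0.08 in Igf1-/- organs (adjusted p = 7e-08) and by 1.46 ± 0.08 in Igf1+/+ organs (adjusted p = 2.7e-09). The Tgfb3 difference was -1.14 ± 0.1 in Igf1-/- and -1.29 ± 0.1 in Igf1+/+ organs, both of which passed. Its E18.5 arrays ran from 6.56 to 6.8 in Igf1-/- and from 6.73 to 6.75 in Igf1+/+ organs, and its P15 arrays from 5.51 to 5.58 in Igf1-/- and from 5.37 to 5.56 in Igf1+/+ organs.

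**Figure D1:**
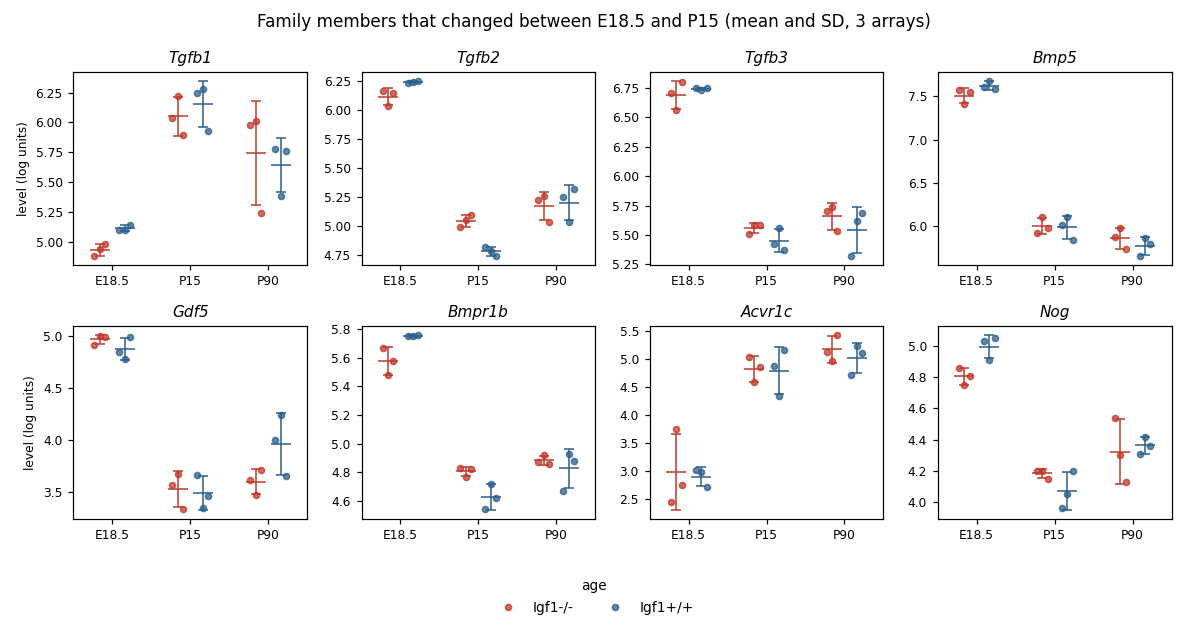
Level in log units (vertical axis) against age for 8 members, with Igf1-/- arrays in red to the left of Igf1+/+ arrays in blue. Points are arrays, long bars means and whiskers SD over 3 arrays. Tgfb1 and Acvr1c were higher at P15 than at E18.5 in both genotypes, and the other 6 genes were lower.

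Among the 10 BMP ligands, 1 rose and 5 fell in Igf1-/- organs, and 1 rose and 4 fell in Igf1+/+ organs. Bmp5, whose loss in mice gives short ears and a smaller skeleton, fell most. In Igf1-/- organs Bmp5 measured 7.57, 7.41 and 7.55 at E18.5, followed by 5.92, 6.1 and 5.98 at P15 and by 5.87, 5.97 and 5.73 at P90. In Igf1+/+ organs Bmp5 measured 7.61, 7.68 and 7.59 at E18.5, followed by 6.01, 6.1 and 5.84 at P15 and by 5.65, 5.86 and 5.79 at P90. The genotypes overlapped at P15, and no later array came within 1 unit of the E18.5 arrays. The fall to P15 was -1.51 ± 0.09 in Igf1-/- organs (adjusted p = 4.9e-09) and -1.64 ± 0.09 in Igf1+/+ organs (adjusted p = 2e-09). Bmp7, a ligand of kidney, eye and skeletal development, fell by 0.52 ± 0.11 in Igf1-/- and by 0.77 ± 0.11 in Igf1+/+ organs. For Bmp4, the ligand of the sensory patches, the fall was -0.37 ± 0.14 in Igf1-/- organs (adjusted p = 0.049), a call lost in 19 of 28 alternatives, with -0.06 without normalization, and -0.67 ± 0.14 in Igf1+/+ organs (adjusted p = 0.0012). Bmp2, an inducer of bone and cartilage, fell by 0.58 ± 0.14 in Igf1+/+ organs. Its difference in Igf1-/- organs was -0.3 ± 0.14 (adjusted p = 0.12), and 0.01 without normalization. Bmp8a was the BMP ligand that rose, by 1.73 ± 0.19 in Igf1-/- and 1.06 ± 0.19 in Igf1+/+ organs.

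GDF ligands gave 1 rise and 1 fall of 8 in Igf1-/- organs, and 1 rise and 3 falls in Igf1+/+ organs. Gdf5, a joint-forming factor of developing cartilage, averaged 3.52 ± 0.18 at P15 and 4.97 ± 0.04 at E18.5 in Igf1-/- organs, and 3.49 ± 0.16 at P15 and 4.87 ± 0.11 at E18.5 in Igf1+/+ organs (SD, n = 3 each). The falls were -1.45 ± 0.13 in Igf1-/- organs and -1.38 ± 0.13 in Igf1+/+ organs (SE). Gdf6, its close relative in joint and skull formation, measured 3, 3.09 and 3.16 in Igf1-/- organs at P15 and 4.04, 2.92 and 3.38 at E18.5. In Igf1+/+ organs Gdf6 measured 2.42, 2.08 and 2.91 at P15 and 4.21, 4.31 and 4.09 at E18.5. Only the Igf1+/+ arrays of these ages did not overlap. The difference was -0.36 ± 0.24 in Igf1-/- organs (adjusted p = 0.26) and the fall -1.74 ± 0.24 in Igf1+/+ organs (adjusted p = 2.9e-05). Replicates 2 and 3 of Igf1-/- at E18.5 were the low ones. Without the 4 arrays that stood apart the Igf1-/- difference was -0.96 (adjusted p = 0.02), which sets the P15 arrays against replicate 1 alone. The difference was -0.62 on leaving out replicate 2 only (adjusted p = 0.049), and -0.06 on leaving out replicate 1 only. Gdf3 rose by 0.6 ± 0.14 in Igf1-/- and 0.53 ± 0.14 in Igf1+/+ organs. Gdf2, also called BMP9, an endothelial ligand made in liver, differed by -0.13 ± 0.22 in Igf1-/- and fell by 0.75 ± 0.22 in Igf1+/+ organs, all at dim levels, and in Igf1-/- organs its sign turned to 0.16 without normalization.

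The activin and inhibin subunits moved in both directions. Inhba and Inhbb encode the subunits of activin A and activin B. Inhba fell by 0.55 ± 0.13 in Igf1-/- and by 0.54 ± 0.13 in Igf1+/+ organs. Inhbb rose by 0.8 ± 0.14 in Igf1-/- and 0.5 ± 0.14 in Igf1+/+ organs. Inhba was lower and Inhbb higher in all 6 P15 arrays than in any E18.5 array of the same genotype. Inha, the inhibin alpha subunit that blocks activin action, was among the falls in Igf1+/+ organs, and its Igf1-/- difference of -0.21 ± 0.15 did not pass.

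Among the 7 type I receptors 2 rose and 3 fell in each genotype, and these were the same 5 genes. Acvr1c, also called ALK7, a receptor for nodal and activin B known from fat and neural tissue, rose most of all members. In Igf1-/- organs Acvr1c measured 2.44, 3.74 and 2.75 at E18.5, followed by 5.03, 4.58 and 4.85 at P15 and by 5.13, 4.96 and 5.43 at P90. In Igf1+/+ organs Acvr1c measured 3.01, 2.97 and 2.7 at E18.5, followed by 4.87, 4.33 and 5.16 at P15 and by 4.71, 5.23 and 5.1 at P90. Postnatal arrays lay above all E18.5 arrays, with replicate 2 of Igf1-/- the highest of the embryonic ones. The rise was 1.84 ± 0.28 in Igf1-/- organs (adjusted p = 7.2e-05) and 1.89 ± 0.28 in Igf1+/+ organs (adjusted p = 4.9e-05). Acvr1b, the type I receptor of activin A, rose by 0.28 ± 0.08 in Igf1-/- and 0.21 ± 0.08 in Igf1+/+ organs, the second of which was near the threshold (adjusted p = 0.046) and was lost in 15 of 28 alternatives.

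The 3 type I receptors that fell were Bmpr1b, Bmpr1a and Acvrl1. Bmpr1b, known from cartilage condensations, measured 4.83, 4.77 and 4.82 at P15 and 5.67, 5.48 and 5.58 at E18.5 in Igf1-/- organs. In Igf1+/+ organs Bmpr1b measured 4.54, 4.72 and 4.62 at P15 and 5.75, 5.75 and 5.76 at E18.5. The ages did not overlap in either genotype, and the span between them was wider in Igf1+/+ organs, where Bmpr1b fell by 1.13 ± 0.08, than in Igf1-/- organs, where it fell by 0.77 ± 0.08. That difference in span was not tested on its own. Bmpr1a, the widely used BMP type I receptor, fell by 0.4 ± 0.06 in Igf1-/- and by 0.66 ± 0.06 in Igf1+/+ organs. Acvrl1, the endothelial receptor for BMP9, fell by 0.5 ± 0.08 in Igf1-/- and by 0.47 ± 0.08 in Igf1+/+ organs.

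Type II receptors moved little. Tgfbr2, which binds TGF-beta first, fell by 0.26 ± 0.08 in Igf1-/- and by 0.39 ± 0.08 in Igf1+/+ organs, but its Igf1-/- difference was 0.06 without normalization. Bmpr2, the main BMP type II receptor, rose by 0.18 ± 0.07 in Igf1-/- organs (adjusted p = 0.044), and its Igf1+/+ difference was -0.06 ± 0.07. The Bmpr2 call was lost in 18 of 28 alternatives, with 0.12 both with array medians subtracted and under cyclic loess. The other type II receptors, Acvr2a and Acvr2b, had differences of -0.17 to 0.05 that did not pass. Tgfbr3, or betaglycan, the co-receptor that presents TGF-beta2 and inhibin, fell by 0.43 ± 0.1 in Igf1-/- and by 0.47 ± 0.1 in Igf1+/+ organs. Of the 4 secreted antagonists, Nog, which blocks BMPs, fell by 0.62 ± 0.09 in Igf1-/- organs (adjusted p = 6.7e-05) and by 0.92 ± 0.09 in Igf1+/+ organs (adjusted p = 1.1e-06). Nog measured 4.2, 4.2 and 4.15 at P15 and 4.86, 4.75 and 4.81 at E18.5 in Igf1-/- organs. In Igf1+/+ organs Nog measured 3.96, 4.05 and 4.2 at P15 and 5.03, 4.91 and 5.05 at E18.5. Follistatin (Fst), which traps activin, fell by 0.48 ± 0.13 in Igf1-/- organs, with -0.29 ± 0.13 in Igf1+/+ organs (adjusted p = 0.083). Chrd, the chordin gene, and the protease gene Bmp1 did not pass in either genotype.

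Several of these calls in Igf1-/- organs depended on the scaling or on the arrays that stood apart. Without normalization Bmp7 (-0.21), Nog (-0.33), Inhba (-0.25), Bmpr1a (-0.11), Acvrl1 (-0.19), Fst (-0.17), Tgfbr3 (-0.11), Bmp8b (-0.28) and Bmp15 (-0.03) no longer passed, beside Bmp4 and Tgfbr2. In the fit without the 4 arrays, with E18.5 replicate 1 alone, the calls of Acvr1b (0.22), Gdf3 (0.61), Fst (-0.34), Tgfbr3 (-0.36), Tgfbr2 (-0.23), Bmp4 (-0.4), Bmpr2 (0.13), Bmp8b (-0.24) and Bmp15 (-0.28) were lost, with an adjusted p of 0.072 for Gdf3 and 0.085 for Tgfbr3. In Igf1+/+ organs only the larger falls were followed gene by gene, and of these Bmp2 (-0.4), Bmp4 (-0.51) and Gdf2 (-0.65) lost their calls without normalization. The count of all falls in Igf1+/+ organs went from 18 to 9 without normalization, so smaller falls that were not followed lost their calls too.

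Both genotypes changed much the same members over this step. They share no arrays, but the joint fit gives each gene the same spread in both, so the lists of calls are not fully independent. Of the 23 members called in Igf1-/- and the 24 called in Igf1+/+ organs, 19 were shared, all in the same direction, which is 82.6% of the Igf1-/- list and 79.2% of the Igf1+/+ list. Over all genes the shared part was 76.5% of the Igf1-/- list and 75% of the Igf1+/+ list, so this sharing was near that of the array as a whole. Bmp15, Bmp8b, Bmpr2 and Fst passed in Igf1-/- organs alone, and Bmp2, Gdf2, Gdf6, Grem1 and Inha in Igf1+/+ organs alone. Of 18 called members followed through the alternative settings in Igf1+/+ organs, the 12 largest falls and all 6 rises, 13 stayed past the threshold under all of them, namely Acvr1c, Bmp5, Bmp7, Bmp8a, Bmpr1a, Bmpr1b, Gdf5, Gdf6, Inhbb, Nog and the 3 TGF-beta ligands. The smaller falls of Igf1+/+ organs were not followed, whereas all 23 Igf1-/- calls were, of which 9 stayed. With the values without normalization set aside, 15 of 18 stayed in Igf1+/+ and 14 of 23 in Igf1-/- organs. These shares cover unlike sets and do not rank the genotypes.

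**Figure D2:**
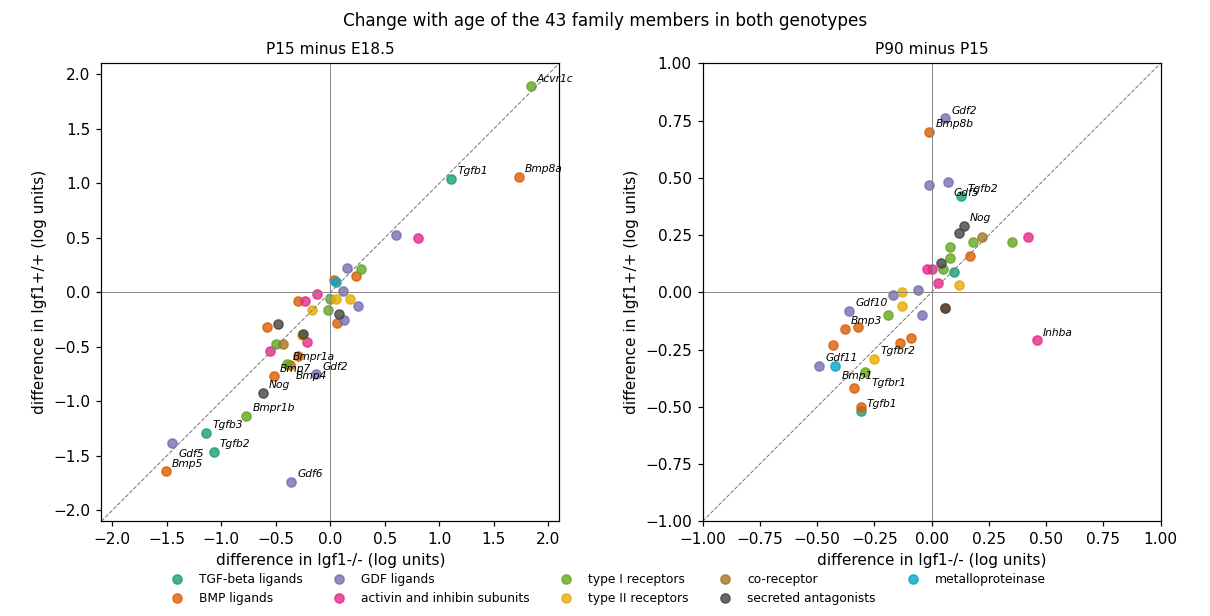
Difference with age in Igf1+/+ organs (vertical axis) against that in Igf1-/- organs (horizontal axis), in log units, for the 43 members coloured by role. The left panel shows P15 minus E18.5 and the right P90 minus P15. Points on the dashed line changed equally, and Gdf6 (-0.36 in Igf1-/-, -1.74 in Igf1+/+) and Inhba at P90 (0.46 in Igf1-/-, -0.21 in Igf1+/+) lie off it.

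Cell type markers moved over the same step, and their part in these changes was not tested. Of 19 cartilage markers 17 fell in Igf1-/- and all 19 in Igf1+/+ organs, with median differences of -1.88 in Igf1-/- and -2.2 in Igf1+/+ organs. The mean of this list over genes was 5.17 to 5.62 at P15 and 7.23 to 7.25 at E18.5 in Igf1-/- arrays, and 5.13 to 5.52 at P15 and 7.5 to 7.57 at E18.5 in Igf1+/+ arrays. Osteoblast markers went up, with 8 of 10 rising in each genotype, and so did B cell markers, with 10 of 11 rising in Igf1-/- and 9 of 11 in Igf1+/+ organs. The otic fibrocyte list had 2 rises and 5 falls of 8 in each genotype.

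The second comparison follows the family from P15 to P90. Fewer members changed. In Igf1-/- organs 1 of 43 rose and 4 fell, 11.6% against 13% of all genes (6.12% up and 6.83% down). In Igf1+/+ organs 5 rose and 5 fell, 23.3% against 17.9% of all genes (8.08% up and 9.78% down). Bmp1 and the patterning ligand gene Gdf11 passed in both, 40% of the Igf1-/- list and 20% of the Igf1+/+ list, where all genes gave 60.7% of the Igf1-/- list and 44% of the Igf1+/+ list. Bmp1 fell by 0.42 ± 0.1 in Igf1-/- and by 0.32 ± 0.1 in Igf1+/+ organs, and Gdf11 by 0.49 ± 0.09 in Igf1-/- and by 0.32 ± 0.09 in Igf1+/+ organs. Under values without normalization, which move the median of all genes by 0.39 in Igf1-/- and 0.2 in Igf1+/+ organs, neither gene passed in either genotype, 16 members rose and 0 fell in Igf1-/- organs, and 10 rose and 0 fell in Igf1+/+ organs. Cyclic loess gave 5 rises and 3 falls in Igf1+/+ organs. Sex moved with this step in Igf1+/+ organs, where Xist measured 3.33, 2.87 and 1.86 at P90 and 7.48, 5.34 and 7.48 at P15 (difference -4.08, adjusted p = 0.0041). With the sex score as a covariate 2 members passed in Igf1+/+ organs, both of them rises.

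Inhba, in Igf1-/- organs, rose by 0.46 ± 0.13 (adjusted p = 0.028), and Bmp3 and Gdf10, related ligand genes of which BMP3 is known to oppose bone formation, fell by 0.38 ± 0.11 and 0.36 ± 0.08. The Inhba call was lost on leaving out Igf1-/- replicate 2 or 3 at P15 or 1 or 3 at P90, with values of 0.39 to 0.47. Leaving out 1 array took the Bmp3 call away for replicates 1, 2 and 3 at P15 and 1 and 3 at P90, with values of -0.43 to -0.27. In Igf1+/+ organs the rises were Gdf2 (0.76 ± 0.22), Bmp8b (0.7 ± 0.18), Gdf5 (0.48 ± 0.13), Tgfb2 (0.42 ± 0.08) and Nog (0.29 ± 0.09). The falls in Igf1+/+ organs, beside Bmp1 and Gdf11, were Tgfb1 (-0.52 ± 0.17), its type I receptor Tgfbr1 (-0.35 ± 0.11) and its type II receptor Tgfbr2 (-0.29 ± 0.08). The adjusted p of these 10 ran from 0.0038 for Tgfb2 to 0.05, just under the threshold before rounding, for Tgfb1. Bmp8b measured 4.52, 4.37 and 3.67 in Igf1+/+ organs at P90 and 3.57, 3.45 and 3.43 at P15, so the rise came with replicates 1 and 2, which stood apart. Without the 4 arrays that stood apart its difference was 0.19 and that of Gdf5 was 0.17, and Tgfb2 was the 1 member of the family past the threshold, at 0.54 (adjusted p = 0.024). That value sets replicate 3 at P90 alone, at 5.32, against the P15 arrays, with the spread taken from the other groups. Leaving out replicate 2 of Igf1+/+ at P15 left 1 member called. The Igf1-/- differences of Tgfb2 and Gdf5 were 0.13 ± 0.08 and 0.07 ± 0.13, which did not pass.

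Over this step 8 of 10 osteoblast markers fell in Igf1-/- and 7 of 10 in Igf1+/+ organs, and 17 of 21 cell cycle markers fell in Igf1-/- and 14 of 21 in Igf1+/+ organs. Skeletal muscle markers went up, with 15 of 18 rising in Igf1-/- and 12 of 18 in Igf1+/+ organs. Their part in the family's changes was not tested.

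The third comparison sets Igf1-/- against Igf1+/+ organs at each age. No family member passed the adjusted threshold in limma at any age, nor in the mean of the 3 ages. Few genes of the array did, 0.0802% of all genes at E18.5, 0.015% at P15, 0.296% at P90 and 0.0351% in the mean. At an unadjusted p under 0.05 the count of members was 3 at E18.5, 8 at P15, 9 at P90 and 4 in the mean. As shares of the 43 these were 6.98% at E18.5 against 12.5% of all genes, 18.6% at P15 against 6.97%, 20.9% at P90 against 11.1% and 9.3% in the mean against 7.68%. An F-test that the difference is the same at the 3 ages called 0 members, against 0.256% of all genes, and gave 7 members, 16.3%, an unadjusted p under 0.05 against 14.5% of all genes. The 95% interval stayed within 0.5 units of 0 for 33 members at E18.5, 34 at P15 and 31 at P90. For these members smaller differences may have been missed, and for the remaining ones larger differences as well.

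**Figure D3:**
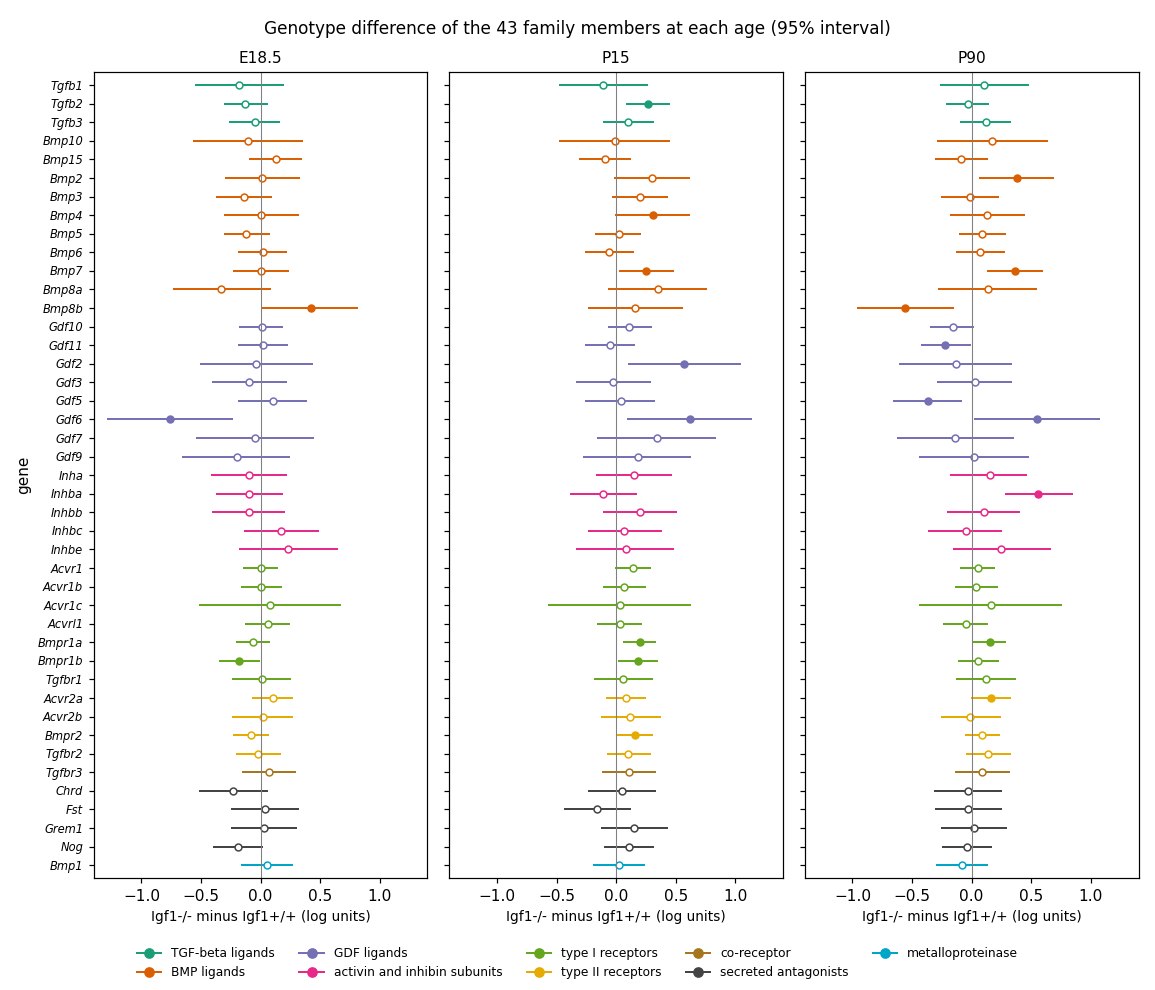
Igf1-/- minus Igf1+/+ difference in log units (horizontal axis) with its 95% interval for each member, at E18.5, P15 and P90, grouped and coloured by role. Filled circles have an unadjusted p under 0.05, and none passed after adjustment. At P15, 35 of 43 differences were above 0.

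At E18.5, 21 differences were positive and 22 negative, with a median of 0, but without normalization, where the median of all genes was -0.15, 6 were positive and 37 negative, and with array medians subtracted, where it was -0.12, 7 were positive and 36 negative. Gdf6 was lowest against wild type, at -0.76 ± 0.24 with a 95% interval of -1.28 to -0.24 (adjusted p = 0.24). Its Igf1-/- arrays measured 4.04, 2.92 and 3.38 and its Igf1+/+ arrays 4.21, 4.31 and 4.09, so the groups did not overlap. Without replicate 1 of Igf1-/- the difference was -1.06 (adjusted p = 0.034), and without the 4 arrays that stood apart it was -0.17. Bmpr1b differed by -0.18 ± 0.08 and Bmp8b by 0.42 ± 0.18, and without the 4 arrays Bmpr1b differed by -0.08 and Bmp8b by 0.08. In all, 8 members had all 3 Igf1-/- arrays below all Igf1+/+ arrays and 0 above, where 11.7% of all genes were below in this way and 7.95% above. The cartilage list was lower too, at 7.23 to 7.25 in Igf1-/- and 7.5 to 7.57 in Igf1+/+ arrays, with 19 of 19 differences negative and 0 called. Muscle markers were higher, at 6.29 to 6.78 in Igf1-/- and 5.56 to 5.99 in Igf1+/+ arrays. The part of either was not tested.

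At P15 the differences leaned upward. They were above 0 for 35 of 43 members, with a median of 0.11 against 0.01 over all genes, although none passed the test. The count was 35 under each of the 3 other scalings, and 31 to 37 on leaving out 1 array of this age. The 7 type I receptors, the 4 type II receptors and the co-receptor Tgfbr3 all had positive differences, of 0.03 to 0.2. The smallest p belonged to Tgfb2, at 0.27 ± 0.08 (adjusted p = 0.52), whose arrays measured 4.99, 5.05 and 5.09 in Igf1-/- and 4.82, 4.78 and 4.74 in Igf1+/+ organs. Bmpr1a measured 6.54, 6.49 and 6.53 in Igf1-/- and 6.25, 6.39 and 6.31 in Igf1+/+ organs, a difference of 0.2 ± 0.06 (adjusted p = 0.52). In neither gene did the groups overlap. The others with an unadjusted p under 0.05 were all positive as well, namely Gdf6 (0.62 ± 0.24), Gdf2 (0.57 ± 0.22), Bmp4 (0.31 ± 0.14), Bmp7 (0.25 ± 0.11), Bmpr1b (0.18 ± 0.08) and Bmpr2 (0.16 ± 0.07). In 10 members all Igf1-/- arrays lay above all Igf1+/+ arrays and in 0 below, against 8.75% of all genes above and 7.75% below. Leaving out any 1 array gave no call at P15. Supporting cell and otic fibrocyte markers leaned the same way, with 13 of 13 and 8 of 8 differences positive and 0 called. Hair cell markers had 11 of 16 positive and otoconia markers 5 of 7. The lean was not limited to otic lists, with 9 of 10 osteoblast, 15 of 19 cartilage and 11 of 12 neuron markers positive. Other lists leaned downward, with 21 of 21 cell cycle, 16 of 18 skeletal muscle and 9 of 9 adipocyte differences negative. The mean of the fibrocyte list was 5.33 to 5.41 in Igf1-/- and 5.15 to 5.28 in Igf1+/+ arrays. B cell markers were at 5.35 to 5.56 in Igf1-/- and 5.73 to 5.95 in Igf1+/+ arrays. The part of these was not tested.

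At P90, 27 differences were positive and 16 negative (40 and 3 without normalization, where the median of all genes was 0.17), and Inhba had the smallest p of the family. It measured 4.64, 4.36 and 4.5 in Igf1-/- and 4.22, 3.56 and 4.02 in Igf1+/+ organs, and the groups did not overlap. The difference was 0.56 ± 0.13, with a 95% interval of 0.29 to 0.84 (adjusted p = 0.087). The call depended on single arrays. Without replicate 1 of Igf1+/+ it was 0.71 (adjusted p = 0.037), without replicate 3 of Igf1+/+ 0.61 (adjusted p = 0.041), without replicate 2 of Igf1+/+ 0.37, without the 4 arrays that stood apart 0.47 (adjusted p = 0.45), and with the sex score as a covariate 0.4 (adjusted p = 0.98). At E18.5 Inhba averaged 4.58 ± 0.08 in Igf1-/- and 4.68 ± 0.05 in Igf1+/+ organs, and at P15 4.03 ± 0.06 in Igf1-/- and 4.14 ± 0.11 in Igf1+/+ organs (SD, n = 3 each), so the sign at the earlier ages was the opposite one.

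The other members with an unadjusted p under 0.05 at P90 were Bmp7 (0.36 ± 0.11), Bmp2 (0.38 ± 0.14), Gdf6 (0.55 ± 0.24), Bmpr1a (0.15 ± 0.06) and the activin type II receptor gene Acvr2a (0.16 ± 0.08) on the positive side. Bmp8b (-0.56 ± 0.18), Gdf5 (-0.37 ± 0.13) and Gdf11 (-0.22 ± 0.09) were on the negative side. Bmp7 measured 4.83, 4.7 and 4.54 in Igf1-/- and 4.47, 4.06 and 4.46 in Igf1+/+ organs. Bmp2 measured 5.04, 5.12 and 4.47 in Igf1-/- and 4.39, 4.34 and 4.77 in Igf1+/+ organs, where replicate 3 of each group crossed over. Gdf5 measured 3.61, 3.47 and 3.71 in Igf1-/- and 4, 4.24 and 3.65 in Igf1+/+ organs. Leaving out replicate 3 of Igf1+/+ at P90 brought Bmp8b (-0.81, adjusted p = 0.016) and Gdf5 (-0.52, adjusted p = 0.037) past the threshold, and leaving out replicate 3 of Igf1-/- did so for Bmp2 (0.58, adjusted p = 0.028). Without the 4 arrays that stood apart, Bmp8b differed by -0.04, Gdf5 by -0.06, Bmp2 by 0.1, Bmp7 by 0.23, Bmpr1a by 0.07, Acvr2a by 0.1, Gdf6 by 0.34 and Gdf11 by -0.33, each resting on replicate 3 of Igf1+/+ alone. With the sex score as a covariate all of these had an adjusted p of 0.89 or above. Markers of other cells moved at P90 too, and their part was not tested. B cell markers averaged 3.88 to 4.24 in Igf1-/- and 4.65 to 4.72 in Igf1+/+ arrays, with 4 of 11 called lower. Cell cycle markers averaged 4.25 to 5.01 in Igf1-/- and 4.92 to 5.62 in Igf1+/+ arrays, with 21 of 21 differences negative and 0 called. Supporting cell markers averaged 5.29 to 5.58 in Igf1-/- and 5.07 to 5.16 in Igf1+/+ arrays, with 13 of 13 differences positive and 1 called. Otic fibrocyte markers averaged 5.21 to 5.54 in Igf1-/- and 5.12 to 5.17 in Igf1+/+ arrays, with 8 of 8 positive and 0 called.

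Across ages the mean difference was 0.21 ± 0.06 for Bmp7 (adjusted p = 0.3), 0.23 ± 0.08 for Bmp2, 0.09 ± 0.04 for Bmpr1a and 0.11 ± 0.04 for Acvr2a. For Bmp7 the postnatal ages carried it, since at E18.5 it averaged 5.3 ± 0.08 in Igf1-/- and 5.3 ± 0.09 in Igf1+/+ organs (SD, n = 3 each). In the F-test across ages Gdf6 had the smallest p of the family (adjusted p = 0.13 in limma), with differences of -0.76 at E18.5, 0.62 at P15 and 0.55 at P90. Next came Inhba (adjusted p = 0.17), Bmp8b (adjusted p = 0.2), Tgfb2 (adjusted p = 0.24), Bmpr1b (adjusted p = 0.26), Bmpr1a (adjusted p = 0.28) and Gdf5 (adjusted p = 0.35). Gdf6 passed without replicate 1 of Igf1-/- at E18.5 (adjusted p = 0.026) and without replicate 3 of Igf1+/+ at P90 (adjusted p = 0.046), and Bmp8b passed without the second of these (adjusted p = 0.021). Without the 4 arrays that stood apart the unadjusted p of Gdf6 was 0.1 and that of Bmp8b 0.53. The unadjusted p of Bmpr1a was then 0.17, that of Bmpr1b 0.073 and that of Gdf5 0.86. This F-test covers all 3 ages, and the step from E18.5 to P15 alone was not compared between genotypes by a test.

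**Figure D4:**
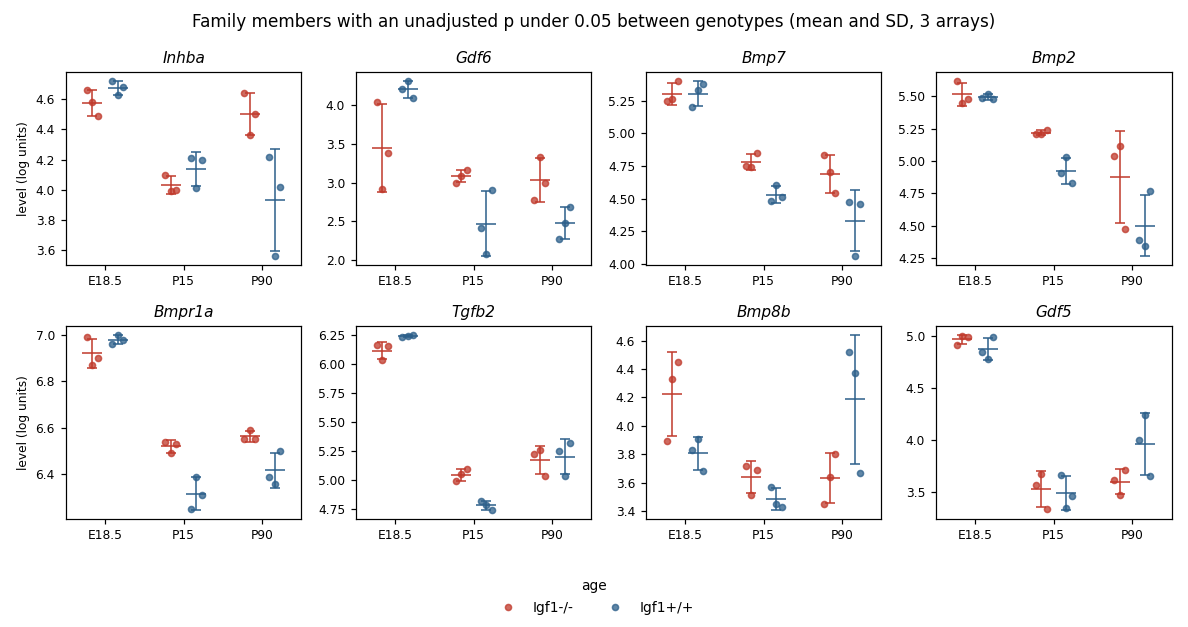
Level in log units (vertical axis) against age for 8 members with an unadjusted p under 0.05 in a genotype comparison. Igf1-/- arrays are red, to the left of Igf1+/+ arrays in blue, with means and SD over 3 arrays. The Inhba groups separate at P90 (4.36 to 4.64 in Igf1-/-, 3.56 to 4.22 in Igf1+/+), and in Bmp8b and Gdf5 at P90 replicate 3 of Igf1+/+ falls in with the Igf1-/- arrays.

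Genes around the family were counted in 4 lists that overlap in a few genes, beside the same shares of all genes as above (40.8% in Igf1-/- and 41.5% in Igf1+/+ organs for P15 minus E18.5, 13% in Igf1-/- and 17.9% in Igf1+/+ organs for P90 minus P15). Calls in these lists, and in the cell type marker lists above, come from the quantile-normalized fit alone. They were not recomputed under the alternatives, so how far their rises and falls depend on the scaling was not tested. Among 41 measured extracellular regulators of these ligands, 3 rose and 26 fell between E18.5 and P15 in Igf1-/- organs, and 3 rose and 28 fell in Igf1+/+ organs. Fbn2, a fibrillin of embryonic microfibrils that store latent ligand, differed by -1.99 ± 0.12 in Igf1-/- and -2.34 ± 0.12 in Igf1+/+ organs. Bmper, which modulates BMP signals outside the cell, differed by -1.63 ± 0.09 in Igf1-/- and -1.67 ± 0.09 in Igf1+/+ organs, and the chordin relative Chrdl1 by -1.42 ± 0.08 in Igf1-/- and -1.37 ± 0.08 in Igf1+/+ organs. All 3 passed in both genotypes.

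Inside the cell, 3 of 16 SMADs and cofactors rose and 5 fell in Igf1-/- organs over this step, and 1 rose and 8 fell in Igf1+/+ organs. Smad5, of the BMP branch, fell by 0.44 ± 0.07 in Igf1-/- and by 0.52 ± 0.07 in Igf1+/+ organs. Smad2, of the TGF-beta and activin branch, fell by 0.33 ± 0.06 in Igf1-/- and by 0.42 ± 0.06 in Igf1+/+ organs. From P15 to P90 Smad9, of the BMP branch, rose by 0.3 ± 0.08 in Igf1-/- and 0.58 ± 0.08 in Igf1+/+ organs. Among 30 transcripts known to respond to these ligands in other settings, 4 rose and 14 fell in Igf1-/- organs between E18.5 and P15, and 3 rose and 15 fell in Igf1+/+ organs. Snai2, a repressor of epithelial genes, fell by 1.4 ± 0.15 in Igf1-/- and by 1.75 ± 0.15 in Igf1+/+ organs, and Hey1 rose by 0.94 ± 0.07 in Igf1-/- and 0.75 ± 0.07 in Igf1+/+ organs. From P15 to P90, 1 rose and 12 fell in each genotype, with the collagen gene Col1a1 at -1.21 ± 0.15 in Igf1-/- and -0.98 ± 0.15 in Igf1+/+ organs. Of 10 other ligands and receptors of the wider superfamily, 4 were among the dimmest 20% of genes. Fewer of these 10 passed between E18.5 and P15, 0 rising and 2 falling in Igf1-/- organs and 0 rising and 1 falling in Igf1+/+ organs. Among them Mstn, the myostatin gene of muscle, fell by 0.94 ± 0.24 in Igf1-/- and by 0.68 ± 0.24 in Igf1+/+ organs between E18.5 and P15, and Nrtn, the neurturin gene, passed in Igf1-/- organs at -0.52 ± 0.13.

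None of the 4 lists had a gene past the adjusted threshold between genotypes at any age. The positive lean at P15 was present there too, with 16 of 16 SMADs and cofactors above 0 and a median of 0.13 (14 of 16 and 0.05 without normalization, 14 of 16 and 0.06 with array medians subtracted), 27 of 41 extracellular regulators with a median of 0.07, 22 of 30 responsive transcripts with a median of 0.08, and 8 of 10 superfamily genes with a median of 0.12, against a median of 0.01 over all genes. The superfamily list carries more doubt, since 4 of its 10 genes were dim. Its mean at P15 was 2.87 to 3 in Igf1-/- and 2.83 to 2.95 in Igf1+/+ arrays, below the dim level of 3.4. The largest of the SMAD list by p was Smurf1, a ubiquitin ligase that removes SMADs and receptors, at 0.2 ± 0.06 (adjusted p = 0.49).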

How the data were processed

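RNA of 18 vestibular organ samples was hybridized to Affymetrix Mouse Gene 1.1 ST arrays from 100 ng of total RNA, per the labels' protocols. One table of logged probe set values was deposited (28853 probe sets), and how the authors corrected, summarized and scaled them is not stated in any source at hand. Natural log values are more likely than log2 ones, since the highest deposited value was 10.03. Array medians ran from 3.88 to 4.82, so the arrays were quantile normalized, which removes any overall difference between groups. Probe sets with 1 symbol in the platform annotation (21789, with 1621 of several symbols and 5443 not listed left out) were used, symbols were updated through the RefSeq gene table where it matched (21698), and the probe set with the highest mean stood for a gene, giving 19938 genes. Groups came from the sample titles.

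All arrays were fitted together with a mean per group in limma 3.58.1 (R 4.3.3, lmFit and eBayes), with Benjamini-Hochberg adjustment over all genes. The number of arrays limits the precision. The rule for members read symbols only, but the choice of this family, and of the lists of pathway and marker genes, was made with earlier results of these data known. Named members were those past the threshold or with an unadjusted p under 0.05 between genotypes, those whose genotypes did not overlap at all 3 ages (0 members), and the 12 largest rises and 12 largest falls of each age step among members called in Igf1+/+ organs, and from each pathway list the 3 genes with the smallest p in a comparison. Other members were named after their values were seen. Promoter windows came from RefSeq on GRCm38.p6, and none from chromosome 18 was used. Alternatives were no normalization, array medians, cyclic loess, no dim genes, the mean of a gene's probe sets, the replicate number as a block, a sex score (Xist minus the mean of Y-linked genes), the compared groups alone (not for the mean and the F-test), a trended robust eBayes, and leaving out arrays.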

Additional observations from a re-analysis of the deposited data

How the results depend on the processing

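In all, 98 differences of named members were recomputed under the alternatives, giving 2727 values, of which 2482 kept their direction and their side of the threshold, 206 lost the call, 24 gained one and 15 turned sign. Counts between genotypes stayed at 0 except on leaving out 1 array, which gave 0 to 1 at E18.5, 0 to 0 at P15, 0 to 3 at P90, 0 to 0 in the mean and 0 to 3 in the F-test, and with the replicate number as a block, which gave 1 at P90 (Inhba, adjusted p = 0.05). The arrays with the same number correlated at -0.19 to 0.24 in their deviations over 9 pairs, and the main fit does not pair them. With 3 arrays per group, such correlations cannot settle whether the numbers pair the samples. The 1 call at E18.5 came without replicate 1 of Igf1-/-, and the 3 calls at P90 and in the F-test without replicate 3 of Igf1+/+ at P90.

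Leaving out 1 array gave 18 to 25 calls for P15 minus E18.5 in Igf1-/- and 21 to 25 in Igf1+/+ organs, and 2 to 7 for P90 minus P15 in Igf1-/- and 1 to 11 in Igf1+/+ organs. For P15 minus E18.5 in Igf1-/- organs the count of 23 became 14 without normalization. For P90 minus P15 in Igf1-/- organs the count of 5 became 16 without normalization, 10 with array medians subtracted and 3 with the compared groups alone. In Igf1+/+ organs the count of 10 became 17 with array medians subtracted, 2 with the sex score, 1 with the compared groups alone and 1 without the 4 arrays that stood apart. The cause was not tested.

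All sign changes were in Igf1-/- organs. Age steps were followed there for some uncalled members too, but in Igf1+/+ organs for called members only, so this does not compare the genotypes. For P15 minus E18.5, Bmp2 was 0.01, Gdf2 0.16 and Tgfbr2 0.06 without normalization, and Gdf2 was 0.03 without replicate 1 at P15. For P90 minus P15, Bmp8b was 0.5 without normalization, 0.09 with array medians subtracted, 0.02 with the sex score, 0.02 and 0.01 without replicates 1 and 3 at P15 and 0.08 without replicate 1 at P90. Gdf2 was -0.11 without replicate 1 at P15 and -0.06 without replicate 1 at P90, Gdf5 was -0.01 with the sex score and -0.03 without replicate 3 at P15, and Tgfbr2 was 0.02 without normalization. Over all arrays left out in turn, Gdf2 ranged from -0.28 to 0.03 for P15 minus E18.5, and for P90 minus P15 Bmp8b ranged from -0.1 to 0.08, Gdf2 from -0.11 to 0.19 and Gdf5 from -0.03 to 0.14. Of these, Tgfbr2 between E18.5 and P15 was a called value. With 3 arrays per group and no detection calls used here, differences of dim members are the least certain.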
